A study of Mus musculus with 4 samples.

Results

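The macrophage genes described here are 10 genes of brown adipose tissue (BAT), Itgam, Adgre1, Cd14, Csf1r, Mrc1, Cd163, Lyz2, Itgax, Ccl2 and Tyrobp, of 20141 genes named on the array. They were chosen by name, with their AP against vehicle signals on these same arrays already known, and Itgam was set apart from the others because of that difference. Their differences between AP and vehicle are therefore given as a description, with no test. The 10 genes had 15 probes, of which 14 probes of 9 genes were well above background in every mouse of 1 or both groups and were tested. The Cd163 probe did not pass.

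All 4 mice were male Tg mice carrying Fv2E-PERK under the aP2 (Fabp4) promoter (maP2::Fv2E-PERK), 8 weeks old by the study's legend. Fv2E-PERK is an artificial form of the eIF2α kinase PERK that starts the integrated stress response (ISR) when the ligand AP20187 (AP) brings its copies together. The groups were 2 mice injected intraperitoneally with vehicle (ethanol, PEG-400 and Tween-20 in water) and 2 injected with AP, at 1 ng/g by the labels, a dose that differs from the one in the study's text, and BAT was taken at 12 h. No wild-type or uninjected mice were analysed here, so AP itself and activation of the transgene were not separated. The aP2 promoter is active in adipocytes and, by the study's account, also in macrophages, so the transgene cannot be taken as confined to fat cells.

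Macrophages live in fat between the adipocytes, where they clear dead cells and lipid, respond to bacterial products and, through chemokines, draw in monocytes from blood. Their identity depends on the growth factor receptor encoded by Csf1r and on the transcription factor PU.1, encoded by Spi1. Itgam and Itgax encode alpha chains of β2 integrins, the adhesion and complement receptors of myeloid cells, and Adgre1 encodes the adhesion receptor that serves as the usual surface marker of mouse macrophages. Cd14 encodes a co-receptor for lipopolysaccharide (LPS), Mrc1 and Cd163 encode the mannose receptor and the hemoglobin-haptoglobin receptor, Lyz2 encodes a lysozyme, Tyrobp encodes the signaling adaptor DAP12, and Ccl2 encodes a monocyte chemokine that several other cell types also make. In bulk tissue, fewer macrophages and less RNA per macrophage cannot be told apart.

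RefSeq promoter sequences (build GRCm38.p6) were given for 5 of the 10 genes, Itgam, Itgax, Mrc1, Lyz2 and Cd163. The 250 bases before the transcription start are printed for 3 of them. Itgam is the gene set apart, Itgax differed most between the vehicle-treated mice, and Mrc1 followed the other genes while its promoter held the same letters as that of Itgam. All 3 stretches lie just outside the gene, upstream of its first exon, are written 5′ to 3′ on the plus strand, and have in capitals each GAGGAA, the core that PU.1 binds in many myeloid promoters, or its reverse complement TTCCTC.
Itgam, chr7:128062390-128062639, plus strand: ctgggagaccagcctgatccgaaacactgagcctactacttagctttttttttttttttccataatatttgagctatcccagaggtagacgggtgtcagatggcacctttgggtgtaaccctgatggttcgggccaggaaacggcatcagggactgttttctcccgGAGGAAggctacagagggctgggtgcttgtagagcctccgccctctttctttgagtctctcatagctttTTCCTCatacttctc
Itgax, chr7:128129300-128129549, plus strand: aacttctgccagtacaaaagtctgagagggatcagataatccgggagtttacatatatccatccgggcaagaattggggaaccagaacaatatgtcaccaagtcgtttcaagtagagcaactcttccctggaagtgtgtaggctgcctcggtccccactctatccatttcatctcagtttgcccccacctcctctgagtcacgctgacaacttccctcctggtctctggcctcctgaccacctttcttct
Mrc1, chr2:14229164-14229413, plus strand: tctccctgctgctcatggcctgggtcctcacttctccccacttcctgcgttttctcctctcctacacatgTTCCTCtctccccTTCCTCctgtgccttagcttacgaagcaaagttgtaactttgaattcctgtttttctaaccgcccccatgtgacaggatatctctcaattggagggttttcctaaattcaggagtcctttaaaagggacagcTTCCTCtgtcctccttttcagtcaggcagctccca
The Itgam stretch held 2 matches, which begin 84 and 15 bases before the start, and the Mrc1 stretch held 3, which begin 180, 167 and 35 bases before it. The Itgax, Lyz2 and Cd163 stretches held none. Of 32851 promoter stretches of the same length, 23.3% held at least 1 match and 3.54% held 2 or more. A match describes these letters only, and its absence says nothing about PU.1.

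Each value below is the log2 of a probe's processed signal relative to the 75th percentile of its array, called the log2 signal, so that 0 is the level of the 75th percentile. Probes differ in brightness for reasons other than RNA level, so values are compared between arrays and not between probes. Where 2 values of a group are given, replicate 1 comes first. On the 4 arrays 46.4% to 49.0% of spots were well above background and none was saturated. Over 24970 tested probes, Pearson's r was 0.97 for the pair of vehicle arrays and 0.98 for the pair of AP arrays. No probe passed an adjusted p of 0.05 (0% of those tested by limma, smallest adjusted p 0.80), and 1515 probes, or 6.07%, had an unadjusted p under 0.05. The ISR genes Trib3 and Ddit3 followed the labels, with log2 signals of 2.78 and 2.33 for Trib3 with vehicle against 6.26 and 8.01 with AP, and of 2.18 and 1.86 against 3.03 and 4.22 for Ddit3. One array stood apart for the genes described here. Vehicle replicate 2 had the highest signal of the 4 arrays for 7 of the 9 macrophage genes (1 probe a gene, the brightest), against 23.8% of the 12787 named genes tested. Results are therefore given also against each vehicle-treated mouse alone.

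Itgam, which encodes the CD11b chain of the complement receptor Mac-1, was lower in both AP-treated mice than in both vehicle-treated mice by its brightest probe, but not in the same way by its other probes. The brightest probe (A_55_P1977934, placed on NM_001082960) had log2 signals of 4.21 in vehicle replicate 1 and 3.82 in vehicle replicate 2, against 2.85 in AP replicate 1 and 3.42 in AP replicate 2. The groups did not overlap, with means of 4.01 ± 0.28 (SD, n = 2) and 3.13 ± 0.40 (SD, n = 2), a difference of -0.88 or 0.542 of the vehicle level. Such a separation in this direction was found for 20.4% of all tested probes, and the reverse, both AP arrays above both vehicle arrays, for 18%, so the separation by itself does not set Itgam apart.

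The other Itgam probes gave a different picture. Probe A_55_P1977926 (NM_008401) had log2 signals of -1.53 and -0.92 with vehicle against -1.41 and -1.33 with AP, a difference of -0.14 with overlapping groups. Probe A_55_P1977929, placed on the same accession as the brightest probe, had -2.45 and -1.64 against -2.48 and -2.84, a difference of -0.61 in which AP replicate 1 lay only just below vehicle replicate 1. On both of these dimmer probes the highest array was vehicle replicate 2, as for most of the other macrophage genes, whereas the brightest probe was highest in vehicle replicate 1. All 3 probes were well above background on all 4 arrays. Over the 4 arrays, which are few points for a correlation and enter both sides of it, the dimmer probes followed the median of the 8 other genes with r of 0.95 and 0.90, and the brightest probe with r of -0.04. Both AP-treated mice lay below both vehicle-treated mice on 2 of the 3 Itgam probes, whereas the profile with vehicle replicate 1 highest was seen on 1 of the 3. The difference of A_55_P1977929, 1 of those 2 probes, was only -0.07 with normexp. Which probe measures Itgam RNA best was not tested, and no probe sequence was used here.

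**Figure D1:**
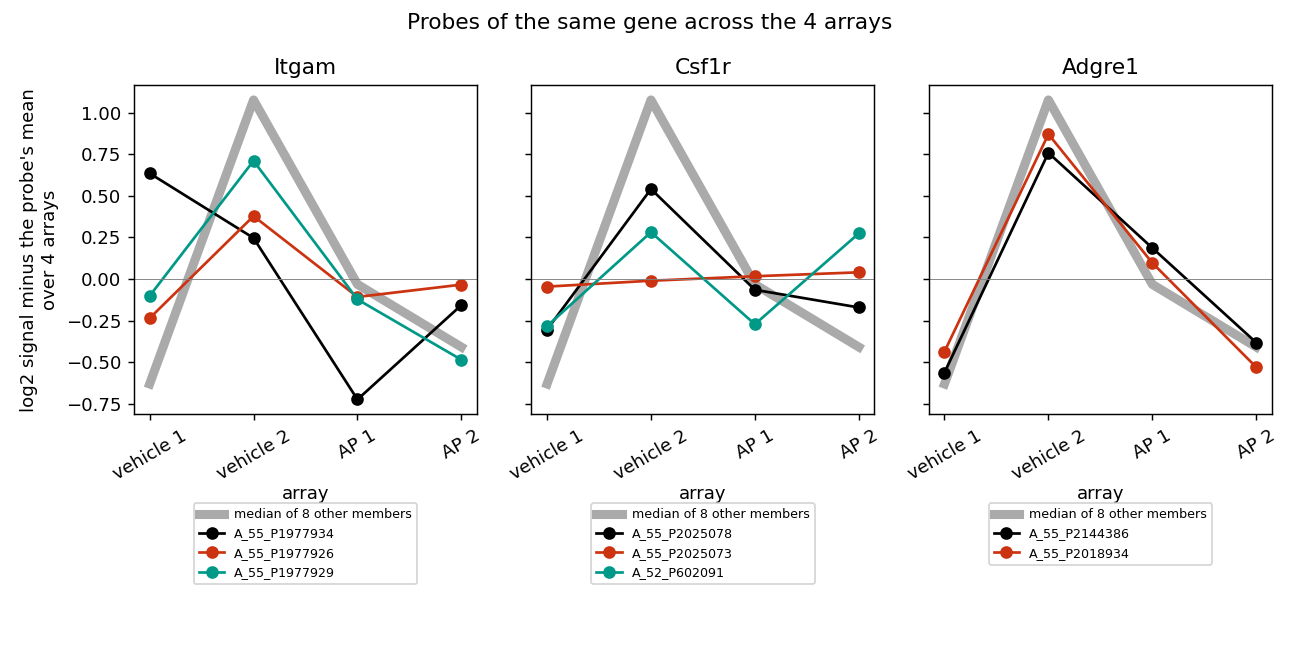
Log2 signal minus the mean of the probe over the 4 arrays (y axis) for each probe of Itgam, Csf1r and Adgre1 on each array (x axis), with the median of the 8 macrophage genes other than Itgam as the thick grey line. The brightest Itgam probe (black, A_55_P1977934) is highest in vehicle 1 at 0.64, while the other Itgam probes and both Adgre1 probes peak in vehicle 2 like the grey line, which reaches 1.08 there.

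Itgax, which encodes CD11c, the alpha chain of another β2 integrin, differed most between the vehicle-treated mice. Its log2 signal was -4.44 in vehicle replicate 1, where the probe was not well above background, and 1.09 in vehicle replicate 2, so replicate 2 was at least 26.7-fold higher than the lowest signal well above background on the array of replicate 1. The AP-treated mice lay between them at -2.78 and -2.39. The probe passed the filter through the AP group. Since its level in vehicle replicate 1 is known only as a bound, the direction of the difference between the group means is not known. The AP mean was at least 1.07 above vehicle replicate 1 on the log2 scale and 3.67 below vehicle replicate 2.

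Adgre1 had 2 probes that behaved alike. The brighter had log2 signals of -0.68 and 0.64 with vehicle against 0.07 and -0.50 with AP. The dimmer had -1.77 and -0.46 against -1.23 and -1.86. On both probes vehicle replicate 2 was highest and the groups overlapped, with differences of -0.20 and -0.43.

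Csf1r, the receptor for the growth factors CSF1 and IL-34, was measured by 3 probes that did not move together. The brightest had log2 signals of 3.27 and 4.11 with vehicle against 3.51 and 3.40 with AP, a difference of -0.24 with vehicle replicate 2 highest. The second was nearly flat at -0.39, -0.35, -0.33 and -0.30 in the same order. Its AP values lay above both vehicle values by a mean of 0.06. This turned to -0.07 with normexp and -0.10 in the authors' values, where the median of all probes was itself -0.17. The third had -1.55 and -0.98 against -1.54 and -0.99, so that both replicates numbered 2 were high and the group means differed by 0.00. Thus 1 of the 3 Csf1r probes followed the pattern of the other macrophage genes closely (r = 0.997 over 4 arrays), and the others had r of 0.01 and 0.53.

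Cd14 stood apart in another way, since AP replicate 1 was highest. Its log2 signals were 0.86 and 1.05 with vehicle against 1.22 and 0.26 with AP, so the AP-treated mice lay on both sides of the vehicle-treated mice and the means differed by -0.22. Cd14 was the only one of the 8 other genes whose AP mean lay below vehicle replicate 1 as well as below vehicle replicate 2.

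Mrc1, a marker of resident macrophages, had log2 signals of 0.52 and 1.33 with vehicle against 0.73 and 0.33 with AP. The groups overlapped and the means differed by -0.40, of which nothing was left against vehicle replicate 1 alone (0.01). Cd163 gave -5.31, -5.79, -5.20 and -5.50 in the same order and was not well above background on any array, so only a bound is known and no difference is given.

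Lyz2, Tyrobp and Ccl2 shared a wide gap between the vehicle-treated mice. Lyz2 had log2 signals of -1.06 and 1.42 with vehicle against -0.24 and -0.52 with AP, a difference of -0.56. Tyrobp had 1.42 and 3.52 against 2.01 and 1.54, a difference of -0.70. Ccl2 had 0.48 and 3.21 against 2.50 and 0.41, a difference of -0.39. For all 3 genes the groups overlapped and vehicle replicate 2 was highest, by 5.61-fold over vehicle replicate 1 for Lyz2, 4.28-fold for Tyrobp and 6.63-fold for Ccl2. Ccl2 was the gene for which the AP-treated mice also differed most, with replicate 2 lower than replicate 1 by 2.08 on the log2 scale.

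**Figure D2:**
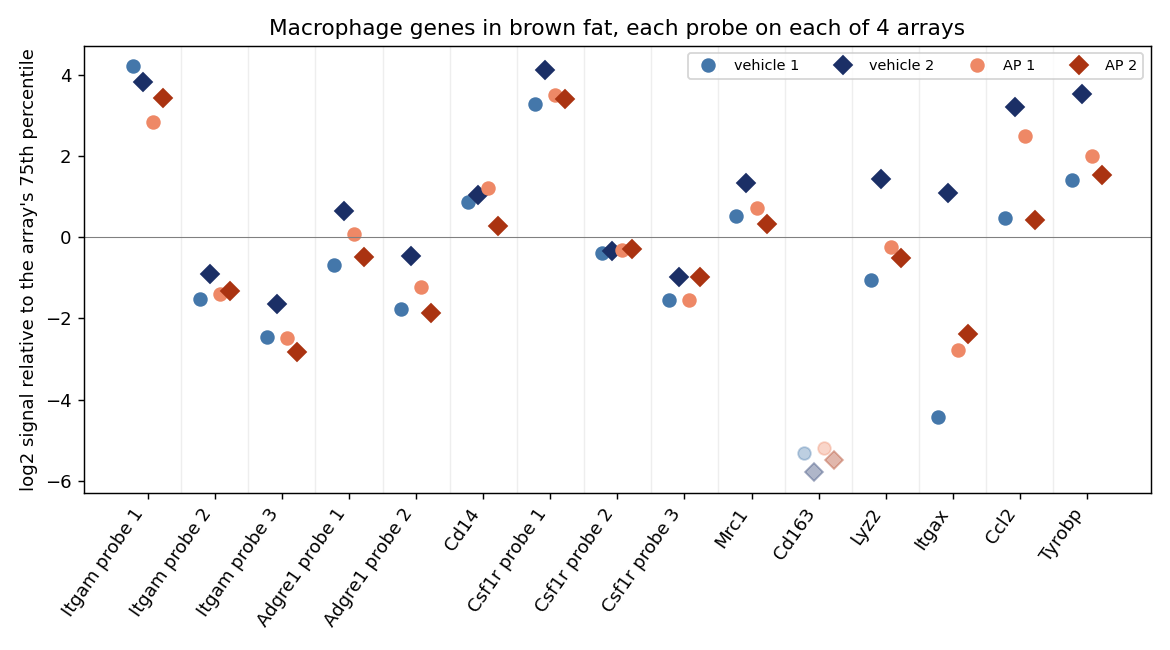
Log2 signal, with 0 at the array's 75th percentile (y axis), for each of the 15 probes of the 10 macrophage genes (x axis, brightest probe of a gene first), with 1 point per array and circles for replicate 1 and diamonds for replicate 2. The dark blue diamond of vehicle replicate 2 is the highest point for 11 of the 14 tested probes; Cd163, in pale colours, was not well above background on any array.

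Taken by gene, with the brightest probe of each, 8 of the 9 macrophage genes had a lower mean in the AP group, against 48.6% of all named genes tested. For Itgax the direction is not known. Only Itgam had both AP-treated mice below both vehicle-treated mice (1 of 9, beside 17.3% of all named genes tested). Among the 8 genes other than Itgam the median difference was -0.40 with Itgax at its measured signal and -0.39 without Itgax. In none of them did the groups separate by the brightest probe. Set against vehicle replicate 2 alone, the AP mean was lower for 8 of 8 genes, with a median of -1.30. Of the 12787 named genes tested, 5688 were lower in this comparison. Set against vehicle replicate 1 alone, the AP mean was higher for 7 of 8 genes, with a median of 0.41, and for 6110 of the 12787. The direction of the median over these 8 genes therefore changed with the vehicle-treated mouse it was set against, while Cd14 was lower against both, and the median gap between the vehicle-treated mice, 1.71, was larger than the difference between the groups. For Itgam the difference was -1.08 against vehicle replicate 1 and -0.69 against vehicle replicate 2 by the brightest probe. By A_55_P1977926 it was 0.17 and -0.45, and by A_55_P1977929 it was -0.20 and -1.02. The median difference over all named genes tested was 0.01.

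**Figure D3:**
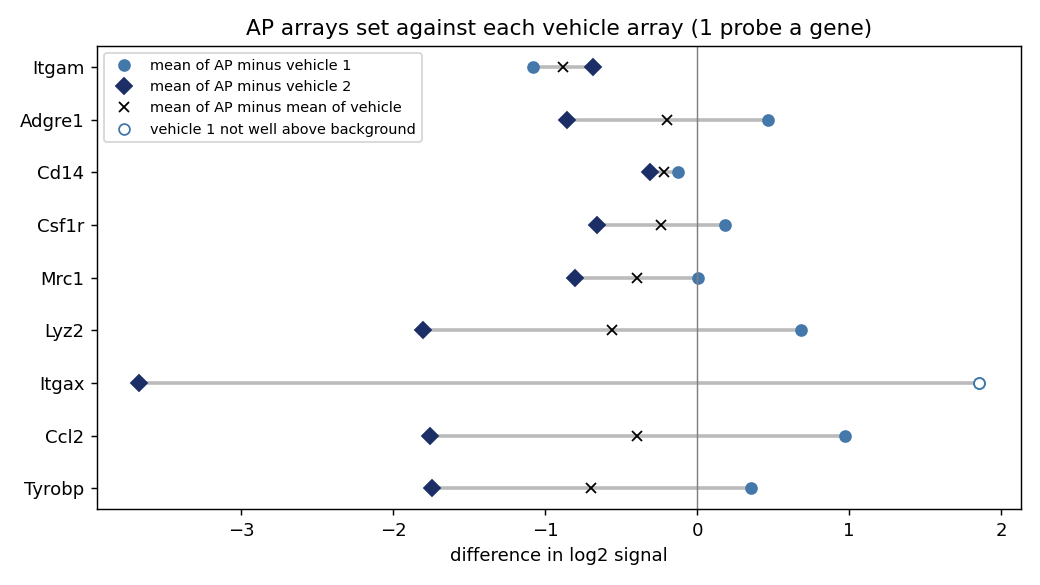
Mean log2 signal of the 2 AP arrays minus vehicle replicate 1 (circles), minus vehicle replicate 2 (diamonds) and minus the vehicle mean (crosses, none for Itgax), on the x axis, for 9 macrophage genes with 1 probe a gene (y axis). For Itgam and Cd14 both comparisons lie below 0, and for the other 7 genes they lie on opposite sides of 0; the open circle of Itgax is drawn at the measured signal of vehicle 1, which was not well above background, and the difference there is known only to be at least 1.07.

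The genes nearest in pattern were found among 12127 genes well above background on all 4 arrays, by the root mean square distance of log2 signals after each gene's own mean was taken off. The brightest Itgam probe was nearest to E330020D12Rik (0.02), Idua, which encodes a lysosomal enzyme (0.02), Oacyl (0.04), Slc17a5, which encodes the lysosomal sialic acid transporter (0.04), and Mgst2, a microsomal glutathione transferase (0.04). The median profile of the 8 other genes was nearest to Fxyd5 (0.04), Fyb, an adaptor of blood cells (0.05), Ppfia4 (0.07), P2ry6, a nucleotide receptor (0.07), and Slc11a1, the metal transporter of macrophage phagosomes (0.08). With 4 arrays many genes share any given profile, and these distances are a description.

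Lists of macrophage biology, 9 in all and holding none of the 10 genes, describe the genes around them on the same arrays. They were chosen with earlier results of these data known, and the same mice enter both sides, so they are not a separate test. Of 191 genes on the 9 lists, 153 were tested, and in limma 0 of them passed an adjusted p of 0.05 and 1 had an unadjusted p under 0.05. In 117 of the 153 the AP mean was lower (76.5%, against 48.6% of all named genes tested), and in 106 vehicle replicate 2 was the highest array (69.3%, against 23.8%). Both AP-treated mice lay below both vehicle-treated mice in 24 (15.7%, against 17.3% of all named genes tested) and above them in 7 (4.58%, against 20.1%). The median difference over the 153 genes was -0.37. It was 0.08 against vehicle replicate 1 and -0.80 against vehicle replicate 2.

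Itgb2 was highest in vehicle replicate 2, as most of the macrophage genes were. This gene, which encodes the β2 chain that both Itgam and Itgax need to reach the cell surface, had log2 signals of -1.99 and 0.60 with vehicle against -1.19 and -2.07 with AP. The difference was -0.94 (adjusted limma p 0.85, and no tested probe passed 0.05). Of 10 tested genes among β2 integrins, their partners and ligands, 8 had vehicle replicate 2 highest and the median difference was -0.36. C3, the complement component whose fragment Mac-1 binds, went the other way, with 8.01 and 6.20 against 8.34 and 7.67, and was lowest in vehicle replicate 2.

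The list of receptors and signaling genes around Tyrobp also held Fc receptor genes and the adaptor gene Hcst, and so is wider than the receptors that signal through Tyrobp. On this list 15 of 18 had a lower AP mean, 15 of 18 had vehicle replicate 2 highest, and the median difference was -0.55. Trem2, a lipid-sensing receptor of macrophages that pairs with Tyrobp, had log2 signals of -1.37 and 0.93 with vehicle against -0.88 and -1.34 with AP. Cd300c2 had -3.11 and 0.22 against -2.41 and -2.31. In both genes vehicle replicate 2 lay far above the other 3 mice, which were close together. Siglech, at 7.22 and 7.01 against 6.91 and 7.59, did not share this pattern.

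The CSF1 and CSF2 axis with myeloid transcription factors had 8 genes lower and 8 higher of 16, with a median difference of 0.01. It turned to -0.03 with normexp, -0.02 with quantile normalization and -0.10 with the mean of a gene's probes. In the authors' values it was -0.15, where the median of all probes was itself -0.17. Csf1, the ligand of the Csf1r receptor, had log2 signals of 0.53 and 1.34 with vehicle against 1.08 and 0.71 with AP. Il34, the other ligand, had 0.82 and 1.21 against 1.25 and 1.09. Neither ligand separated the groups. Irf5, a transcription factor of inflammatory macrophages, had -1.87 and -0.18 against -1.91 and -2.72. Spi1 itself was well above background on 1 of 4 arrays, vehicle replicate 2, where its log2 signal was -3.68, and was not tested.

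The LPS receptor pathway, in which Cd14 passes LPS to Tlr4 and Ly96, had 11 genes lower and 6 higher of 17, and vehicle replicate 2 was highest for 7. The median difference was -0.06, and it turned to 0.02 with normexp or when arrays were scaled by their medians. Tlr4 had log2 signals of -0.46 and -0.11 with vehicle against -0.32 and 0.01 with AP, and Ly96 had 0.07 and -0.02 against 0.39 and 0.22. The groups separated for Ly96, by 0.28, and overlapped for Tlr4. The cytokine genes Tnf, Il6 and Il10 and the prostaglandin synthase gene Ptgs2 did not pass the filter.

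Chemokines and their receptors were mostly highest in vehicle replicate 2, as Ccl2 was. Of 17 tested, 15 had a lower AP mean and 15 had vehicle replicate 2 highest, with a median difference of -0.58. Ccr2, the receptor for CCL2 on monocytes, had log2 signals of -3.05 and -0.01 with vehicle against -2.92 and -1.95 with AP. Ccl9, a chemokine of myeloid cells, had 1.05 and 3.17 against 1.97 and 0.27. Cx3cl1, the ligand of the monocyte and macrophage receptor CX3CR1, had -0.07 and 1.71 against 2.10 and 0.89, and was highest in AP replicate 1.

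Pan-macrophage and lysosome genes were lower in the AP mean in 26 of 27, with vehicle replicate 2 highest in 22 and a median difference of -0.53. Coro1a, an actin regulator of blood cells, had log2 signals of 0.95 and 3.35 with vehicle against 1.16 and 1.03 with AP. Ctsb, a lysosomal protease that many cell types make, had 8.33 and 8.02 against 8.02 and 7.64. No probe was matched to Cd68. Resident and scavenger macrophage genes had 20 lower of 25, 19 with vehicle replicate 2 highest, and 9 with both AP-treated mice below both vehicle-treated mice (17.3% of all named genes tested did so), with a median difference of -0.40. One of these was Gas6, a ligand that bridges dying cells to phagocytes, with 4.29 and 5.03 against 3.82 and 3.84, a difference of -0.83. Lipid-associated macrophage genes were mixed, with 6 lower and 5 higher of 11, and monocyte genes had 12 lower of 16.

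**Figure D4:**
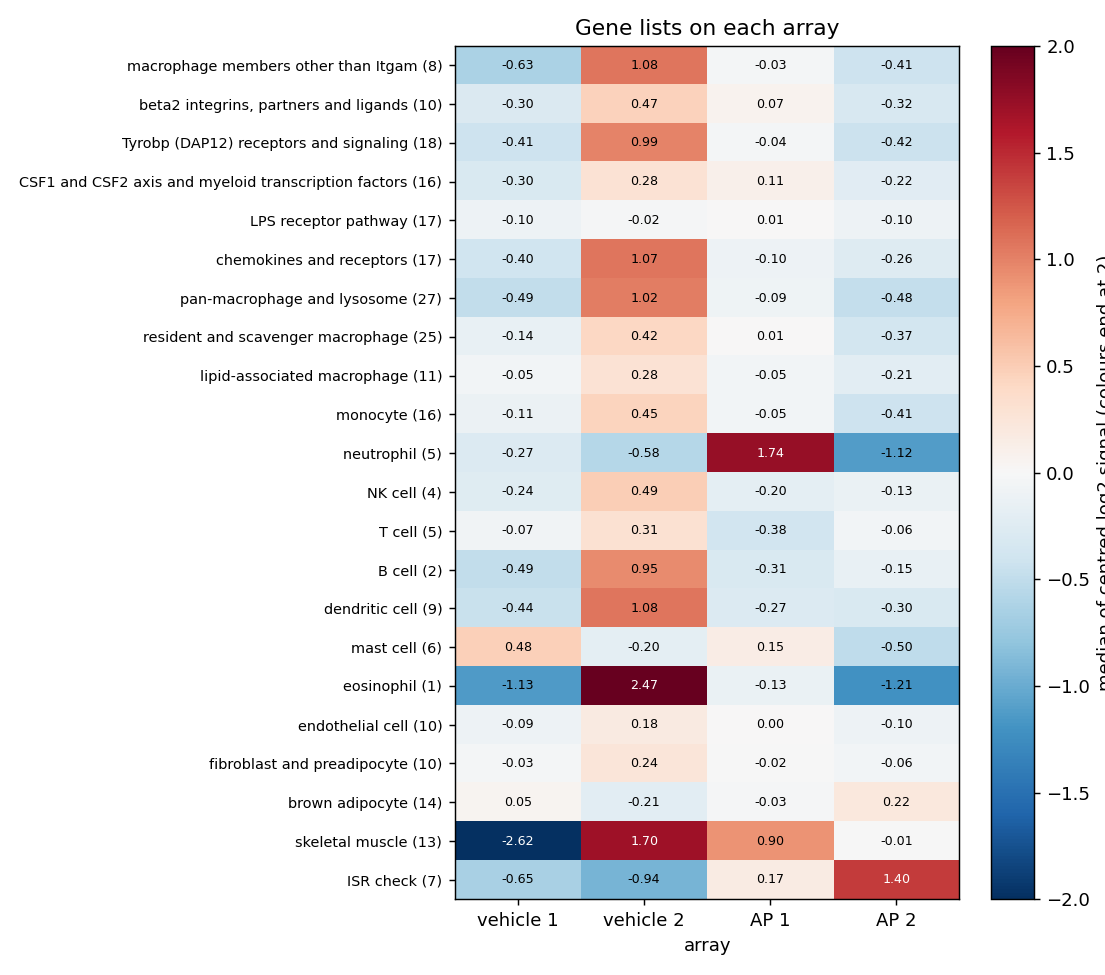
Median over each list (y axis, number of tested genes in brackets) of the log2 signal minus each gene's mean over the 4 arrays, on each array (x axis), as colour and number; colours end at 2 on either side. Vehicle 2 is the highest array for the 8 macrophage genes at 1.08 and for the skeletal muscle genes at 1.70, and it is the lowest for the brown adipocyte genes at -0.21.

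Markers of some other cells were mostly highest in vehicle replicate 2 as well, and those of others were not. All 13 skeletal muscle genes were highest in vehicle replicate 2 and lowest in vehicle replicate 1, and their summed signal on the log2 scale was 5.95 and 10.2 with vehicle against 9.50 and 8.65 with AP. Myh4, a fast myosin of skeletal muscle, had log2 signals of 3.84 and 7.83 against 7.58 and 6.63. The macrophage genes Lyz2, Itgax, Csf1r, Tyrobp and Adgre1, by their brightest probes, were also highest in vehicle replicate 2 and lowest in vehicle replicate 1. Dendritic cell genes had vehicle replicate 2 highest in 7 of 9. The median of their centred log2 signals was -0.44 and 1.08 with vehicle against -0.27 and -0.30 with AP. Their summed log2 signal, 7.56 and 7.97 against 7.38 and 7.89, was carried mostly by Siglech. Few lymphocyte markers were measurable, with 5 of 12 for T cells, 2 of 9 for B cells and 4 of 11 for natural killer cells, and Cd3d and Ncr1 were among those that did not pass the filter. Fibroblast and preadipocyte genes had vehicle replicate 2 highest in 7 of 10, endothelial genes in 5 of 10, and brown adipocyte genes in 2 of 14. The part of these other tissues and cells in the macrophage values was not tested. The arrays shared 1 slide and 1 scan, and on that slide the vehicle arrays lay in column 1 and the AP arrays in columns 3 and 4, so position and treatment cannot be told apart. Vehicle replicate 2 was the only array in row 2 of the slide and the brightest before scaling, with a 75th percentile of 159 against 118 to 128 on the others, and the part of this in the macrophage values was not tested.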

How the data were processed

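RNA of BAT from 4 Tg mice was hybridised to one-color Agilent SurePrint G3 Mouse arrays. The authors extracted the scans with Agilent Feature Extraction 10.7.1.1, by the submitters' processing notes, and deposited the background-corrected intensity of each spot, not normalized between arrays. A second table that the authors deposited holds log2 values they had processed, whose centring is not stated. Differences between its columns correlated with those of the log2 intensities with r of at least 0.9978. Columns of comparisons by the study were not used.

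Each processed signal was divided by the percentile 75 of its array and put on the log2 scale. Control spots and outlier flags were left out, and spots of a probe were averaged. Probes were kept if every mouse of 1 or both groups had a signal well above background, 24970 of 55681. Probes were named by accession through a RefSeq table (assembly GRCm38.p6; the array design is on another build, so no coordinates were taken from it), which gave 26576 probes of 20141 genes. For a gene with several probes the one with the highest mean signal was taken, and all probes of the 10 genes are given. AP was compared with vehicle by lmFit and eBayes (limma 3.58.1, R 4.3.3), with Benjamini-Hochberg adjustment over all probes and a threshold of 0.05. The fit was tested on simulated data. With 2 mice per group the number of arrays limits the precision, and a two-sided exact permutation test could not give a p below 0.333. The labels give the replicates as separate samples and do not state a pairing. Same-numbered mice deviated from their group means with r of -0.13, so no block was used.

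The 10 genes and the lists were chosen with earlier results of these data known. Beside the 10 genes, the text names Itgb2, C3, Spi1, Csf1, Il34, Trem2, Tlr4, Ly96, Ccr2, Cd68, Fabp4, Trib3 and Ddit3, for each list genes from those with the highest signal, the largest rise and the largest fall, and the 5 genes nearest in pattern to Itgam and to the other genes. Some list genes are not reported here by name. Untested genes and the positions of promoter matches were read after the values were seen. The alternatives were normexp (offset 50, on the median spot signal), quantile normalization, scaling by the array median, all probes without a filter, a filter asking for signal on all 4 arrays, the authors' log2 values, a replicate block, a variance trend, the methods' t-test, averaging a gene's probes, leaving out each mouse and, added after the data were seen, the other Itgam probes and a crossed pairing.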

Additional observations from a re-analysis of the deposited data

How the results depend on the processing

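The count of probes with an adjusted p under 0.05 was 0 under every alternative run, with 1003 to 2610 probes at an unadjusted limma p under 0.05 (1478 by the methods' t-test). With the replicate block it was 0, with 1227 unadjusted, and it changed no call. A crossed pairing, added after the data were seen, gave 0 adjusted and 1567 unadjusted. A block for slide and scan could not be fitted with 1 slide and 1 scan. The authors' log2 values moved the median of all probes to -0.17.

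Over the 8 other settings that kept all mice, the median difference of the other macrophage genes stayed between -0.57 and -0.31, that of Itgam between -1.04 and -0.55, and that of Itgam minus the others between -0.50 and -0.15. With probe A_55_P1977926 the Itgam difference was -0.14, and Itgam minus the others turned to 0.25, while with probe A_55_P1977929 they were -0.61 and -0.21. With normexp the Itgam difference shrank to -0.04 by A_55_P1977926 and to -0.07 by A_55_P1977929, and was -0.85 by the brightest probe. When each mouse was left out in turn, the median of the others ranged from -1.30 to 0.41, and it was 0.41 without vehicle replicate 2. Itgam alone ranged from -1.17 to -0.60, and Itgam minus the others from -1.49 to 0.61, being 0.61 without vehicle replicate 1 and 0.10 without AP replicate 1. By gene the ranges were -0.86 to 0.47 for Adgre1 (0.09 without AP replicate 2), -0.69 to 0.26 for Cd14, -0.66 to 0.19 for Csf1r, -0.81 to 0.00908 for Mrc1, -1.81 to 0.68 for Lyz2, -3.67 to 1.85 for Itgax (the 1.85 is against a signal not well above background), -1.76 to 0.97 for Ccl2 (0.65 without AP replicate 2) and -1.74 to 0.35 for Tyrobp. The lowest came without vehicle replicate 1 and the highest without vehicle replicate 2, except for Cd14, which ranged with AP replicates 1 and 2. List medians ranged from -0.68 to 0.19 for the β2 integrin list, -1.33 to 0.14 for the list around Tyrobp, and -1.36 to 0.09 for chemokines. They ranged from -1.33 to 0.18 for pan-macrophage genes, -0.31 to 0.36 for the CSF1 axis, and -0.47 to 0.0939 for lipid-associated macrophages. For the LPS receptor pathway the range was -0.10 to 0.06, for dendritic cells -1.40 to 0.12 and for neutrophils -0.73 to 2.17. Some list medians stayed below 0 whichever mouse was left out. Among them were resident and scavenger macrophages (-0.62 to -0.05) and monocytes (-0.64 to -0.02). Others were T cells (-0.75 to -0.03), mast cells (-0.68 to -0.03) and fibroblasts and preadipocytes (-0.35 to -0.06). The causes were not tested.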

Other observations

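Neutrophil genes were mixed, with 2 lower and 3 higher in the AP mean of 5 tested, and vehicle replicate 2 was highest for 1. Their median difference was 0.67, and 0.10 when signal on all 4 arrays was asked for. S100a9, a calcium-binding protein abundant in neutrophils, had log2 signals of 3.07 and 2.47 with vehicle against 4.94 and 1.95 with AP, and its partner S100a8 had 0.67 and 0.37 against 2.69 and 0.06. Both were highest in AP replicate 1 and lowest in AP replicate 2. Elane went the other way in its group means, with 2.31 and 2.12 against 1.76 and 1.54, a difference of -0.56. Only 5 of 15 neutrophil markers passed the filter, and the defining genes Ly6g, Mpo and Camp did not. Mast cell genes had vehicle replicate 2 highest in 0 of 6, and Kit, the stem cell factor receptor of mast cells, had 2.71 and 1.45 against 1.32 and 1.08.

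Of the brown adipocyte genes, Fabp4, whose promoter drives the transgene, had log2 signals of 10.9 and 10.4 with vehicle and lay between these values in both mice given AP. Elovl3, a fatty acid elongase of brown fat, was far lower in vehicle replicate 2, with 6.08 and -1.07 against 3.52 and 5.76. The list as a whole did not share this drop. Its median of vehicle replicate 2 minus vehicle replicate 1 was -0.13, and Adipoq was highest in vehicle replicate 2, with 8.37 and 8.44 against 8.06 and 8.16. No cause was tested for these values.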
